A study of Mus musculus with 2 samples.

Results

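The 37 cell-cycle genes described here are 14 S-phase genes, which serve DNA replication, and 23 G2/M genes, which serve chromosome condensation, the spindle and the exit from mitosis. They were chosen by name from known roles, and all 37 of 37 were present among the 32228 genes of the count matrices. Their summed share of UMIs (unique molecular identifiers, which count captured transcripts) was followed in 10 marker-gated immune classes of the colon: B, plasma, CD4 T, Treg, CD8 T, NK, ILC2, monocyte, neutrophil and dendritic cells. The cells came from the lamina propria of mice given dextran sulfate sodium (DSS), a chemical that injures the colon epithelium and causes colitis. Both groups were C57BL/6 mice of 8 to 10 weeks that received DSS, and they differed in Ring1A, a polycomb protein that was present in WT mice and deleted in the whole body in Ring1AKO mice. Cells that carry CD45, the surface protein of leukocytes, were sorted from colons pooled within each group and made into 1 single-cell RNA library per group. With 1 library per group there was no replicate check, and the differences below compare these 2 libraries, not the genotypes.

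A cell that divides first copies its DNA in S phase and then separates the copies in mitosis. E2F factors turn on the S genes, among them the MCM helicase, the PCNA clamp and the enzymes that make deoxynucleotides. The MuvB complex with B-MYB and FOXM1 turns on the G2/M genes later, and the DREAM complex holds both sets down in resting cells. In the inflamed colon most lymphocytes rest, while plasmablasts, activated T cells and dendritic cell precursors can divide, and mature neutrophils do not.

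The promoter of a G2/M gene often holds a cell-cycle genes homology region (CHR, TTTGAA) with CCAAT boxes upstream, and that of an S gene often holds E2F sites. RefSeq promoter windows (build GRCm38.p6, 250 bases before to 50 after the annotated start) were matched by symbol for 31 of the 37 members. TTTGAA, on either strand, lay in the windows of 14 of 19 G2/M genes and 2 of 12 S genes, against 20.2% of 27025 genes with such windows. An E2F-like TTTNNCGC lay in 1 of 19 G2/M genes and 7 of 12 S genes, against 5.93% of genes. CCAAT was found in 17 of 19 and 10 of 12, against 41.1%. Motifs were searched on both strands and overlapping matches were counted, and a match describes letters in the window and no binding. The windows shown were chosen for their motifs, and among those by most UMIs over all kept cells of both libraries. Mki67 and Cenpa led among G2/M windows with TTTGAA and at least 2 CCAAT boxes, and Mcm6 and Mcm3 among S windows with TTTNNCGC. They do not show how common the motifs are, and the window of Pcna held no TTTNNCGC. Capitals mark TTTGAA and CCAAT (or its reverse complement ATTGG) in the G2/M genes and TTTNNCGC or its reverse complement in the S genes. Mki67 lies at chr7:135716330-135716629 on the minus strand, Cenpa at chr5:30666636-30666935 on the plus strand, Mcm3 at chr1:20820263-20820562 on the minus strand and Mcm6 at chr1:128359656-128359955 on the minus strand.
Mki67: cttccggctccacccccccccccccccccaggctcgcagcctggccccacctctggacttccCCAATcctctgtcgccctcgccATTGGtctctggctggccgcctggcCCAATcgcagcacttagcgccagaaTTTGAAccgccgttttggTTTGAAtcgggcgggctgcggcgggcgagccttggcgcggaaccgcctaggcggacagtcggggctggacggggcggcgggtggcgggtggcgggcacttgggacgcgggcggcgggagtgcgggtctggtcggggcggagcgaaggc
Cenpa: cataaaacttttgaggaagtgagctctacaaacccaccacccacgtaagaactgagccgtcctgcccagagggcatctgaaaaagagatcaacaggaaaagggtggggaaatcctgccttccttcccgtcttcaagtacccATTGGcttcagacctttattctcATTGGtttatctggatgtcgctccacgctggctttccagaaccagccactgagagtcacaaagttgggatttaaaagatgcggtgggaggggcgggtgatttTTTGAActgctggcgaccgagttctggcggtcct
Mcm3: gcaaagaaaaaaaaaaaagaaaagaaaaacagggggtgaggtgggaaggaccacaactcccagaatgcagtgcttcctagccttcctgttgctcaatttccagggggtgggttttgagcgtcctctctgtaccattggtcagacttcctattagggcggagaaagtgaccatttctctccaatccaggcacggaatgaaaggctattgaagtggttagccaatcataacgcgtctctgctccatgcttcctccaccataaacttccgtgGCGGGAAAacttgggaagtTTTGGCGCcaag
Mcm6: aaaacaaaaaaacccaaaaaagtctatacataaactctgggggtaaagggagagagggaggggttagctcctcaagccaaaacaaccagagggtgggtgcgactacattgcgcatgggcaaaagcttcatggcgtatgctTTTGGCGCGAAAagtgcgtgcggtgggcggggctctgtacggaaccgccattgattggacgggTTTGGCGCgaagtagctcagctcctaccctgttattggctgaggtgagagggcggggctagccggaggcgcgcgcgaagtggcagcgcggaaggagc

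The matrices held 74414511 UMIs in the WT library and 81862096 in the library labelled Ring1AKO. Barcodes with at least 1000 UMIs, at least 500 genes and less than 5% mitochondrial UMIs were kept as cells, which left 6005 in WT and 7918 in Ring1AKO, with medians of 6354 and 5035 UMIs. Of the kept cells, 11 carried a barcode found in both libraries. Ring1, which encodes Ring1A, stood at 13.4 and 11.8 counts per 1000000 UMIs (CPM), with 828 UMIs in WT and 816 in Ring1AKO. These are 3' tag counts, and which part of the gene was deleted is not given in the sources used here, so Ring1 does not check the label, and the second library is named by its label throughout. Barcodes with fewer than 100 UMIs, which hold RNA free of cells, carried the 37 genes at 688 CPM in WT and 653 in Ring1AKO, levels close to those over all kept cells. Free RNA made up an estimated 2.95% and 3.75% of UMIs in non-B classes, from immunoglobulin transcripts. The intervals below are 95% intervals and cover counting error only. They are exact for sums of UMIs (Poisson), shares of cells (Clopper-Pearson) and ratios of summed UMIs (conditional binomial). For ratios of shares of cells they are approximate, on the log scale. Cell-cycle UMIs of 1 dividing cell come together, so intervals of summed UMIs are narrower than the sampling of cells allows.

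Over all kept cells the cell-cycle genes were lower in the library labelled Ring1AKO, and the difference lay in the G2/M genes. The 37 genes summed to 728 CPM in WT (interval 721 to 734) and 596 CPM in Ring1AKO (590 to 602), a log2 ratio of -0.29. S genes were at 307 and 319 CPM, a log2 ratio of 0.06 (0.03 to 0.08). G2/M genes were at 421 and 277 CPM, a log2 ratio of -0.60 (-0.63 to -0.58). The libraries differed in cell makeup, with B cells numbering 1196 of the WT cells and 3602 of the Ring1AKO cells. When each class was given the mean of its weights in the 2 libraries, the log2 ratios were -0.41 for all members, -0.06 for S and -0.72 for G2/M. The direction of the G2/M difference was therefore the same with equal class composition.

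**Figure D1:**
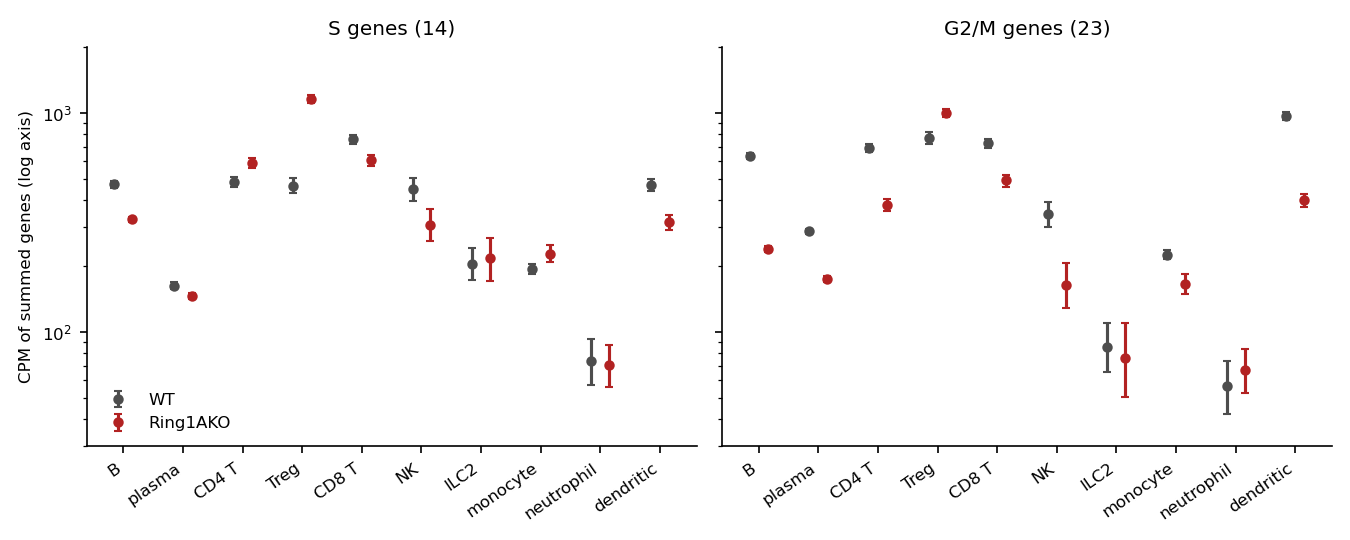
Summed CPM of the 14 S genes (left) and the 23 G2/M genes (right) in 10 cell classes, on a log axis, with points for the WT (grey) and Ring1AKO (red) libraries and bars for exact 95% Poisson intervals. G2/M genes were lower in Ring1AKO in B cells (634 and 238 CPM) and higher in Treg cells (768 and 1000 CPM), and neutrophils were lowest of the classes in both panels.

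Cells with at least 5 cell-cycle UMIs made up 24.3% of kept WT cells (1461, interval 23.2 to 25.4) and 18.7% of Ring1AKO cells (1483, 17.9 to 19.6). With equal class composition these shares were 22.7% and 20.8%, a log2 ratio of -0.13 in place of -0.38. The limit of 5 UMIs followed depth: the median cell at or above it had 11604 UMIs in WT and 9696 in Ring1AKO, and the median cell below it 5470 and 4629. Many cells lay near it, since 1396 WT and 1771 Ring1AKO cells had 3 or 4 such UMIs and 593 and 725 had 5 or 6. Cells with at least 2000 UMIs, 5851 in WT and 7660 in Ring1AKO, were also thinned to 2000 UMIs. At least 2 cell-cycle UMIs were then found in 23.6% and 22.1% of them, a log2 ratio of -0.09 (-0.18 to 0.00). The depth, the limit and the cells counted differ between these 2 measures, so their separate parts in the smaller gap were not tested.

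A small population of cells held a large share of the signal. Cells with at least 0.2% of their UMIs in the 37 genes and at least 5 such UMIs, called high-share cells below, numbered 230 in WT (3.83%, interval 3.36 to 4.35) and 183 in Ring1AKO (2.31%, 1.99 to 2.67). This limit was set after the distribution had been seen. These cells held 57.3% of all cell-cycle UMIs in WT and 48.2% in Ring1AKO. They were deep, with medians of 16724 and 22822 UMIs. Outside them the 37 genes were at 337 and 330 CPM, a log2 ratio of -0.03 (-0.06 to -0.00), so the summed levels were close. High-share cells were chosen by these same genes, so leaving them out takes the highest cells from both libraries. Levels outside them, here and in the classes below, describe the cells left and do not place the difference. S and G2/M genes differed in direction outside high-share cells. S genes were at 191 and 202 CPM (0.08, 0.05 to 0.12) and G2/M genes at 146 and 128 CPM (-0.19, -0.24 to -0.15). Inside high-share cells S genes were at 1683 and 1989 CPM (log2 ratio 0.24) and G2/M genes at 3655 and 2382 CPM (-0.62).

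**Figure D2:**
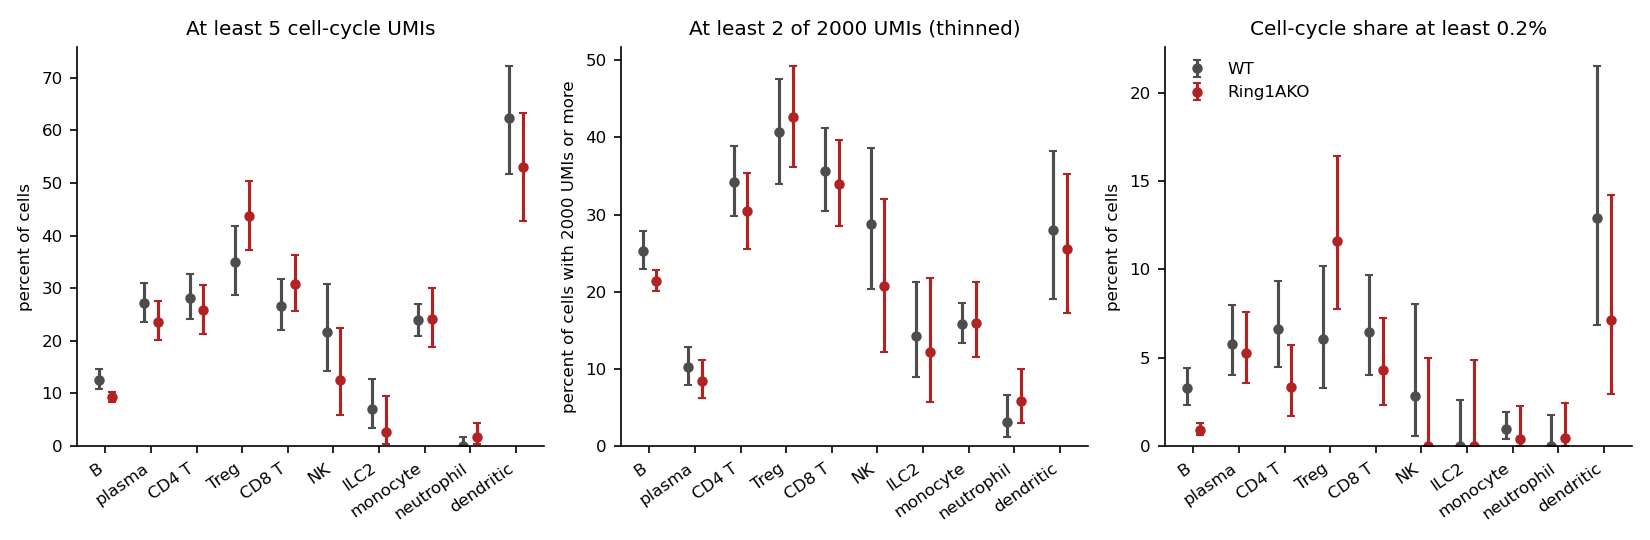
Percent of cells per class with at least 5 cell-cycle UMIs (left), with at least 2 after thinning to 2000 UMIs (middle) and with a cell-cycle share of at least 0.2% (right), with exact 95% Clopper-Pearson intervals, WT in grey and Ring1AKO in red. Dendritic cells led at 5 UMIs (62.4% in WT) but not after thinning (28.0%), and the high-share cells of B cells were 3.26% in WT and 0.916% in Ring1AKO.

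In B cells most members were lower in the library labelled Ring1AKO. The summed level was 1105 CPM in WT and 564 CPM in Ring1AKO, a log2 ratio of -0.97 (-1.01 to -0.93), with -0.53 for S and -1.41 for G2/M genes. High-share cells were 39 of 1196 WT cells and 33 of 3602 Ring1AKO cells, or 3.26% (2.33 to 4.43) and 0.916% (0.631 to 1.28). These intervals did not overlap. Outside high-share cells the B cell levels were 454 and 410 CPM, a log2 ratio of -0.14. Of 35 members with at least 50 UMIs over both libraries, 27 were at least 1.5-fold lower in Ring1AKO and 0 at least 1.5-fold higher. Over all 9960 genes so counted in B cells, 18.1% were lower by that fold and 2.54% higher. The members' median log2 ratio was -1.43, beside -0.19 for all genes. The members are not independent, since 39 high-share cells held 63.1% of the cell-cycle UMIs of WT B cells and 33 held 29.6% in Ring1AKO. The mean over cells of the cell-cycle share gave a log2 ratio of -0.46 in place of -0.97.

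The 3 members with the most UMIs in B cells differed in size of change. Pcna, the replication clamp that also serves DNA repair, was at 145 and 131 CPM. Cenpa, the histone variant that marks centromeres, was at 138 and 121 CPM. Top2a, the topoisomerase that untangles chromosomes, was at 85.5 CPM in WT and 21.2 CPM in Ring1AKO (log2 ratio -2.01, -2.21 to -1.82). The deepest falls were those of Plk1, a mitotic kinase, at 6.58 and 0.828 CPM (log2 ratio -2.93), and of Mki67, which coats mitotic chromosomes, with 580 UMIs (90.8 CPM) in WT and 235 UMIs in Ring1AKO (-2.81). No member with at least 50 UMIs was higher in Ring1AKO B cells. Erythroid markers of B cells moved as well, from 8.46 CPM in WT to 212 CPM in Ring1AKO, and monocyte markers from 884 to 614 CPM, and their part in the result was not tested.

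Plasma cells, the antibody-secreting cells, had a low summed level of 449 CPM in WT and 320 CPM in Ring1AKO, a log2 ratio of -0.49 (-0.54 to -0.44). Yet 27.1% and 23.6% of them had at least 5 cell-cycle UMIs, with medians of 27246 and 35593 UMIs per cell, and after thinning 10.2% and 8.43% had at least 2. High-share cells were 34 of 590 and 28 of 529, or 5.76% and 5.29%, with overlapping intervals. Of 36 members counted, 12 were at least 1.5-fold lower and 0 higher, while 27.8% of all genes in plasma cells were lower and 2.56% higher. The share of all members that were lower was thus near the background. The lower members were 11 of 22 G2/M genes and 1 of 14 S genes. The log2 ratio of the summed level was -0.15 for S and -0.72 for G2/M genes.

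Mki67 had the most UMIs of the members in plasma cells over both libraries. It was at 76.7 CPM in WT and 26.8 CPM in Ring1AKO (log2 ratio -1.51, -1.66 to -1.37). Top2a was at 36.6 and 18.8 CPM and Pcna at 50.4 and 43.0 CPM. The largest fall was that of Cenpe, a kinesin that moves chromosomes to the spindle equator, at 9.93 and 1.37 CPM (-2.81). The 2 largest positive ratios were in deoxynucleotide synthesis, Rrm2 (ribonucleotide reductase) at 12.4 and 16.8 CPM and Tyms (thymidylate synthase) at 7.96 and 10.7 CPM. Neither of these reached 1.5-fold.

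In CD4 T cells the S and G2/M genes differed in direction. The summed level was 1174 CPM in WT and 971 CPM in Ring1AKO (log2 ratio -0.27, -0.35 to -0.20), with 482 and 591 CPM for S genes (0.29) and 692 and 380 CPM for G2/M genes (-0.86). High-share cells were 29 of 439 and 12 of 361, or 6.61% (4.47 to 9.35) and 3.32% (1.73 to 5.73). Of 24 members counted, 5 were higher by 1.5-fold, all S genes, and 9 lower, all G2/M genes. The background was 5.32% of genes higher and 12.7% lower. The UMI limit for counting a member was on the sum over both libraries, so these counts are not independent of it. Tyms rose from 13.5 to 31.1 CPM (log2 ratio 1.19) and Mcm5, a helicase subunit, from 20.5 to 43.8 CPM (1.08). Cenpf, a kinetochore protein, was at 22.3 and 4.63 CPM (-2.17) and Nusap1, which bundles spindle microtubules, at 18.4 and 5.05 CPM (-1.78). Mki67 was at 113 and 32.8 CPM and Top2a at 112 and 69.9 CPM, while Pcna stood at 163 and 186 CPM and Cenpa at 174 and 119 CPM. These shifts rested on few cells, since 12 high-share cells held 51.2% of the cell-cycle UMIs of Ring1AKO CD4 T cells.

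Treg cells, the Foxp3-positive regulatory T cells, were the class of the 10 in which the genes were higher in Ring1AKO by over 1.5-fold. The sum was 1233 CPM in WT and 2154 CPM in Ring1AKO, a log2 ratio of 0.80 (0.73 to 0.89), with 465 and 1154 CPM for S genes (1.31) and 768 and 1000 CPM for G2/M genes (0.38). High-share cells were 13 of 214 (6.07%, 3.27 to 10.2) and 27 of 233 (11.6%, 7.78 to 16.4). Outside them the levels were 656 and 685 CPM, a log2 ratio of 0.06 (-0.07 to 0.20). The high-share Treg cells differed in depth, with medians of 5663 UMIs and 2130 genes in WT and 21595 UMIs and 4479 genes in Ring1AKO, and without cells of over 5000 genes the log2 ratio was 0.42. The part of depth in the difference was not tested. The mean over cells of the cell-cycle share, which does not let deep cells weigh more, gave 0.35. Macrophages, set apart from monocytes and not among the 10 classes, were also higher in Ring1AKO, with a log2 ratio of 0.85 (0.70 to 1.01).

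Of 26 members counted in Treg cells, 20 were at least 1.5-fold higher and 1 lower, while 12.2% of 6457 genes were higher and 19.0% lower. All 12 S genes with at least 50 UMIs were among the 20. That limit was on the sum over both libraries, and S UMIs of Treg cells numbered 661 in WT and 2470 in Ring1AKO. Gins2 (10 and 79 UMIs) and Tyms (17 and 138 UMIs) passed it through the Ring1AKO library. How many other members did so was not counted. The counts of 20 and 12 are thus not independent of that limit. The members are not independent, since 27 high-share cells held 78.0% of the cell-cycle UMIs of Ring1AKO Treg cells and 13 held 52.0% in WT. The counts therefore rest on few cells. Tyms was at 12.0 and 64.5 CPM (log2 ratio 2.36, 1.70 to 3.25) and Gins2, a part of the replicative helicase, at 7.04 and 36.9 CPM (2.27). Pcna was at 150 and 260 CPM. Mki67 hardly differed, at 128 and 133 CPM (0.05, -0.22 to 0.33), and Top2a was at 100 and 151 CPM (0.59). Cenpa was at 213 and 176 CPM. Cenpf (38.0 and 19.2 CPM) was the member that fell past the fold, and Cenpe was at 21.1 and 16.8 CPM.

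CD8 T cells had 1483 CPM in WT and 1097 CPM in Ring1AKO, a log2 ratio of -0.43 (-0.51 to -0.36). The share of cells with at least 5 cell-cycle UMIs ran the other way, 26.7% and 30.8%, with overlapping intervals. Its direction depended on the limit. The log2 ratio was 0.21 at 5 UMIs, -0.32 at 10 UMIs and -0.07 after thinning. High-share cells were 21 of 326 and 13 of 302, and outside them the levels were 572 and 620 CPM, a log2 ratio of 0.12 (-0.01 to 0.24). Of 25 members counted, 8 were lower and 0 higher, against 14.4% and 3.71% of all genes. The limit of 50 UMIs was again on the sum over both libraries, so these counts are not independent of it. Tpx2, which starts spindle assembly, was at 22.9 and 7.59 CPM (-1.53), Mki67 at 121 and 46.5 CPM (-1.37) and Top2a at 130 and 62.7 CPM (-1.04). Pcna (222 and 209 CPM) and Cenpa (116 and 120 CPM) were nearly level, and Cenpa was the single member above 0 on the log2 scale among those with at least 50 UMIs.

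The innate lymphocytes held few high-share cells. NK cells were at 791 CPM in WT and 471 CPM in Ring1AKO (log2 ratio -0.75, -0.99 to -0.51), from 106 and 72 cells. High-share NK cells were 3 of 106 and 0 of 72, and 3 counts of the total, the limit used for a count of 0, allow a share of up to 4.17% (the exact interval reaches 4.99%). Mki67 had 26 UMIs in WT and 2 in Ring1AKO NK cells, and without high-share cells the log2 ratio of the class was -0.25 (-0.50 to 0.01). ILC2, which make type 2 cytokines, were at 290 and 291 CPM in 141 and 74 cells. ILC2 held 0 high-share cells in either library, which by the same limit allows up to 2.13% in WT and 4.05% in Ring1AKO (exact intervals reach 2.58% and 4.86%). A difference was not detectable at this depth.

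Monocytes had 417 and 392 CPM, a log2 ratio of -0.09 (-0.20 to 0.02), and S and G2/M genes differed in direction with 0.24 (0.09 to 0.38) and -0.44 (-0.61 to -0.28). Monocyte high-share cells were 8 of 806 and 1 of 241. Pcna was at 117 and 153 CPM, Cenpa at 90.7 and 77.4 CPM and Mki67 at 54.4 and 45.7 CPM. Mcm5 was at 5.78 and 9.96 CPM and Tyms at 4.78 and 6.79 CPM, with intervals of the ratio that held 0. Top2a was at 15.1 and 6.34 CPM (-1.16, -2.17 to -0.45), and Mcm4, another helicase subunit, at 16.0 and 9.05 CPM (-0.76). The 14 Top2a UMIs of Ring1AKO monocytes are few.

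Neutrophils served as a class that should lack dividing cells. Their sums were 129 and 137 CPM, the lowest of the 10 classes, and 0 of 205 WT and 4 of 227 Ring1AKO neutrophils reached 5 cell-cycle UMIs, or 0% and 1.76% at medians of 4172 and 4931 UMIs. By the limit of 3 counts, 0 of 205 allows a share of up to 1.46% (the exact interval reaches 1.78%). The 4 Ring1AKO cells were deep, with a median of 12845 UMIs beside 4866 in those below 5 cell-cycle UMIs. High-share neutrophils were 0 of 205 in WT and 1 of 227 in Ring1AKO. That 1 cell held 10.9% of the cell-cycle UMIs of Ring1AKO neutrophils. Of the members, 13 had no UMI in either library's neutrophils and 2 had at least 50. Pcna was at 52.0 and 48.2 CPM, Kif23, a kinesin of cell division, at 23.3 and 28.9 CPM and Cenpa at 18.0 and 15.8 CPM. The shares of the other classes at 5 UMIs lay above the neutrophil share, except that the ILC2 share of Ring1AKO, 2.70% (0.329 to 9.42), overlapped it.

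Dendritic cells, which present antigen, were at 1437 CPM in WT and 715 CPM in Ring1AKO, a log2 ratio of -1.01 (-1.10 to -0.92), from 93 and 98 cells. High-share cells were 12 (12.9%, 6.85 to 21.5) and 7 (7.14%, 2.92 to 14.2), with overlapping intervals, and they held 75.8% and 60.1% of the class's cell-cycle UMIs. Of 28 members counted, 21 were lower by 1.5-fold and 0 higher, against 18.7% and 4.45% of all genes. The UMI limit for counting a member was on the sum over both libraries. Cell-cycle UMIs of dendritic cells numbered 2952 in WT and 1386 in Ring1AKO, so these counts are not independent of that limit. With at least 100 UMIs asked for, 8 members were lower and 0 higher. Mki67 was at 157 and 70.1 CPM (-1.16) and Top2a at 110 and 39.2 CPM (-1.48). Outside the high-share cells the level was 439 and 326 CPM, a log2 ratio of -0.43 (-0.59 to -0.27). Macrophages, set apart from monocytes by C1q transcripts, were at 372 and 673 CPM, with 0 of 222 and 3 of 102 high-share cells. Without those cells they were at 372 and 533 CPM, a log2 ratio of 0.52 (0.34 to 0.69).

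**Figure D3:**
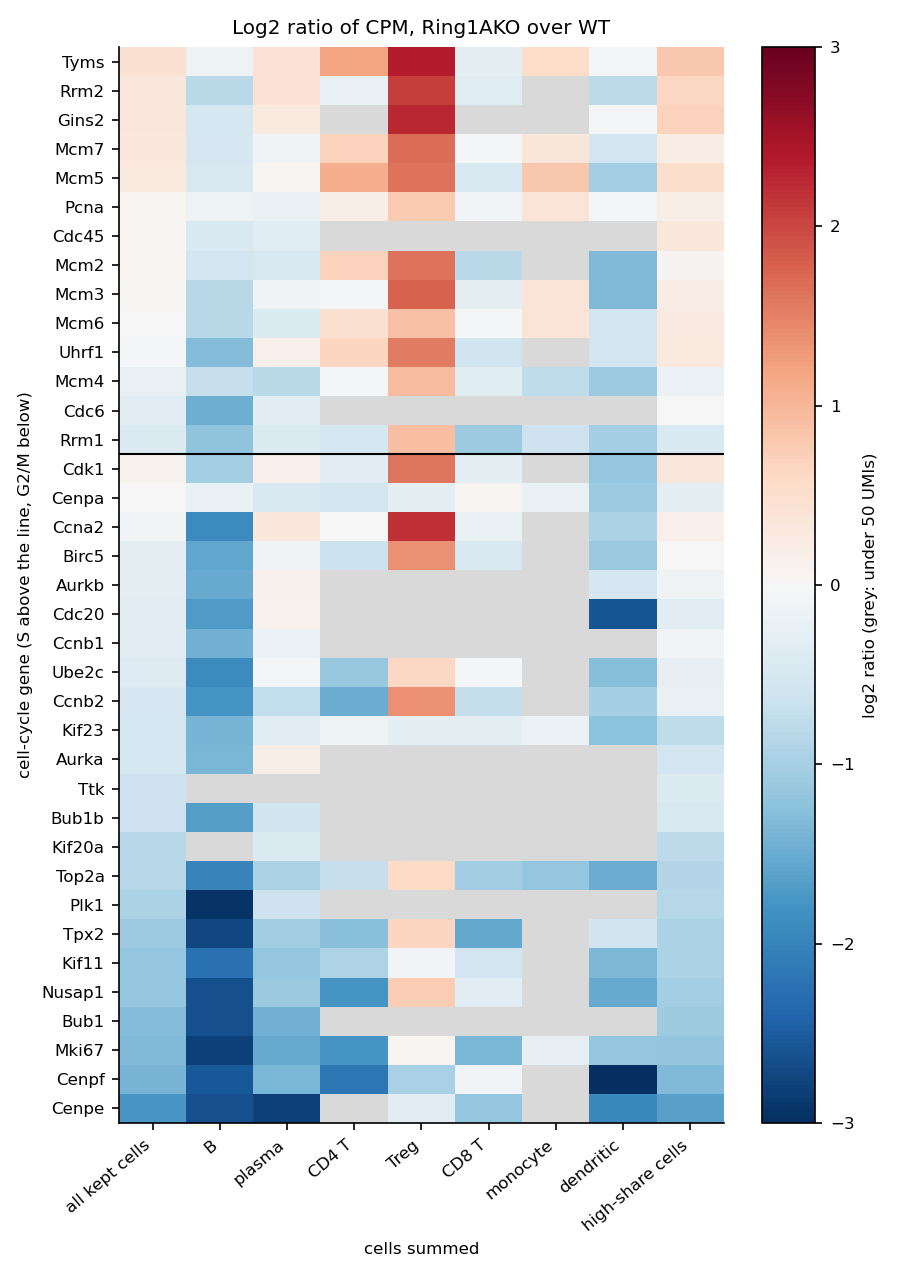
Log2 ratio of CPM, Ring1AKO over WT, of each member (rows, S genes above the line) over all kept cells, in 7 classes and in the high-share cells, with colours limited to -3 and 3 and grey where a member had under 50 UMIs. Treg cells were red in most S genes, with Tyms at 2.36, and B cells blue, with Mki67 at -2.81.

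Over all kept cells, 12 of 37 members were at least 1.5-fold lower in Ring1AKO and 0 were higher, against 19.0% and 3.97% of 13797 genes. The 12 were all G2/M genes. The median log2 ratio was 0.05 for S genes and -0.61 for G2/M genes, beside -0.15 for all genes. By UMIs the leading members were Pcna (6929 and 8060 UMIs, 112 and 117 CPM), Cenpa (81.7 and 81.3 CPM) and Mki67 (81.9 and 32.9 CPM, log2 ratio -1.32, -1.39 to -1.24). Top2a was at 56.1 and 30.9 CPM (-0.86).

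Among the S genes, the helicase set of Mcm2 to Mcm7 ran from -0.22 (Mcm4) to 0.31 (Mcm7) on the log2 scale. Mcm6 was level at 31.5 CPM in both libraries. The deoxynucleotide enzymes split: Tyms had 583 and 898 UMIs (0.46, the largest positive ratio), Rrm2 at 13.5 and 17.2 CPM (0.34) and Rrm1 at 22.9 and 17.2 CPM (-0.42). The helicase-loading and helicase-activating factors Cdc6, Cdc45 and Gins2 were at -0.32, 0.06 and 0.33, and Uhrf1, which carries DNA methylation to new strands, at -0.04. None of the 14 reached 1.5-fold in either direction.

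The G2/M genes ranged from a log2 ratio of -1.74 to 0.10. Cdk1, the mitotic kinase, was at 8.60 and 9.20 CPM (0.10, -0.07 to 0.27), and its partners Ccna2, Ccnb1 and Ccnb2 at -0.08, -0.35 and -0.51. Aurka and Aurkb were at -0.53 and -0.30, and the checkpoint kinases Bub1b, Ttk and Bub1 at -0.62, -0.61 and -1.31. Several spindle and kinetochore genes were past the fold. Cenpe was at 12.5 and 3.74 CPM (-1.74), Cenpf at 15.3 and 5.77 CPM (-1.40), Nusap1 at -1.16, Kif11 at -1.15 and Tpx2 at -1.09. Kif20a and Kif23, motors of cytokinesis, were at -0.85 and -0.52, and Birc5, of the chromosome passenger complex, at -0.26. Ube2c and Cdc20, which act in the anaphase-promoting complex, were at -0.38 and -0.35. Plk1 was at -0.95 and Cenpa at -0.01.

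The length of the transcript moved with these ratios. Over all genes with at least 50 UMIs in all kept cells, the median log2 ratio was -0.05 for genes whose longest annotated transcript was under 1500 bases and -0.40 for those of 10000 bases or more. The same trend ran from 0.10 to -0.59 in high-share cells. The longest members are Cenpf (11130 bases), Mki67 (10061 bases) and Cenpe (7910 bases), and these fell most. After the median of genes of like length was subtracted, Mki67 was at -0.91, Cenpe at -1.41 and Top2a at -0.63. Of the 23 G2/M genes 10 were then at least 1.5-fold lower, with a median of -0.54, and of the 14 S genes 0 were lower and 1 was higher, with a median of 0.20. In B cells 20 of 21 G2/M genes were lower by this measure. In plasma cells 7 of 22 were, against 11 without the subtraction. The share of all genes past the fold after the subtraction was not computed, so these counts stand without a background. The part of length in the G2/M difference was otherwise not tested.

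**Figure D4:**
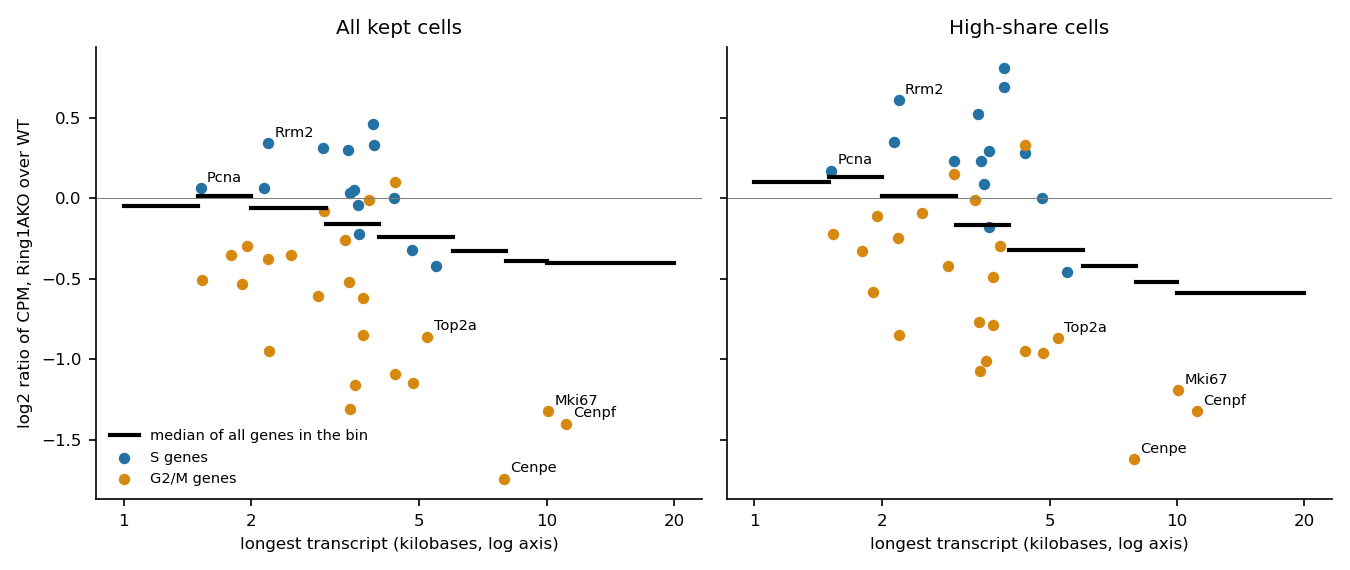
Log2 ratio of CPM, Ring1AKO over WT, of the 37 members against their longest annotated transcript, over all kept cells (left) and within high-share cells (right), with black bars for the median of all genes in each length bin, the outer bins being open-ended. Cenpe, Cenpf and Mki67 are the longest members and the lowest, and most G2/M genes lie below the bars while S genes lie near or above them.

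Within high-share cells the median difference from genes of like length was 0.37 on the log2 scale for the 14 S genes and -0.55 for the 23 G2/M genes. Tyms was at 72.2 CPM in WT high-share cells and 126 CPM in Ring1AKO ones (0.81), Gins2 at 35.4 and 57.3 CPM (0.69) and Rrm2 at 144 and 220 CPM (0.61). Rrm1, also an S gene, went the other way at 165 and 120 CPM (-0.46, -0.63 to -0.31). Mki67 was at 711 and 312 CPM (-1.19, -1.28 to -1.10), Top2a at 562 and 307 CPM (-0.87) and Cenpe at 136 and 44.0 CPM (-1.62). Cdk1 was higher at 92.7 and 117 CPM (0.33, 0.15 to 0.52), Ccna2 was at 125 and 139 CPM and Birc5 at 258 and 256 CPM. The high-share cells were chosen by the sum of these genes, so the split between members describes their makeup.

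Each cell was set on the S or the G2/M side by the larger of its S and G2/M sums, each scaled by its median over these cells. Among high-share cells, 113 of 230 WT cells lay on the G2/M side (49.1%, interval 42.5 to 55.8) and 66 of 183 Ring1AKO cells (36.1%, 29.1 to 43.5). In high-share CD4 T cells these were 17 of 29 and 3 of 12, in Treg cells 8 of 13 and 6 of 27, in B cells 19 of 39 and 13 of 33, in plasma cells 22 of 34 and 13 of 28, and in CD8 T cells 6 of 21 and 5 of 13. The G2/M share was lower in Ring1AKO in 4 of these 5 classes and higher in CD8 T cells, but the intervals of the 2 libraries overlapped in all 5. In mixed cells it was 52.9% in WT and 56.2% in Ring1AKO, and in ungated cells it was 11 of 24 high-share cells in WT and 6 of 12 in Ring1AKO. Among cells with at least 5 cell-cycle UMIs, 54.6% and 44.4% lay on the G2/M side. Mki67 and Top2a supply many of the G2/M UMIs, so the side a cell falls on depends on the genes whose length trend is given above, and free RNA enters both sums.

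The members differed in how far their UMIs lay in high-share cells. Division itself was not measured. For each member, high-share cells were defined again without it, by the sum of the other members. Ccna2 and Bub1 had 94.2% and 94.1% of their WT UMIs in such cells, and 92.4% and 93.5% in Ring1AKO. Mki67 had 66.7% and 59.5%, Top2a 77.7% and 62.5%. Pcna had 22.3% and 20.7%, and Cenpa 21.4% and 14.7%, so most UMIs of these 2 abundant members came from cells without a high share. Pcna and Cenpa led the UMI counts in B, CD4 T, Treg, CD8 T and monocyte classes, and both were nearly level between the libraries in all kept cells.

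**Figure D5:**
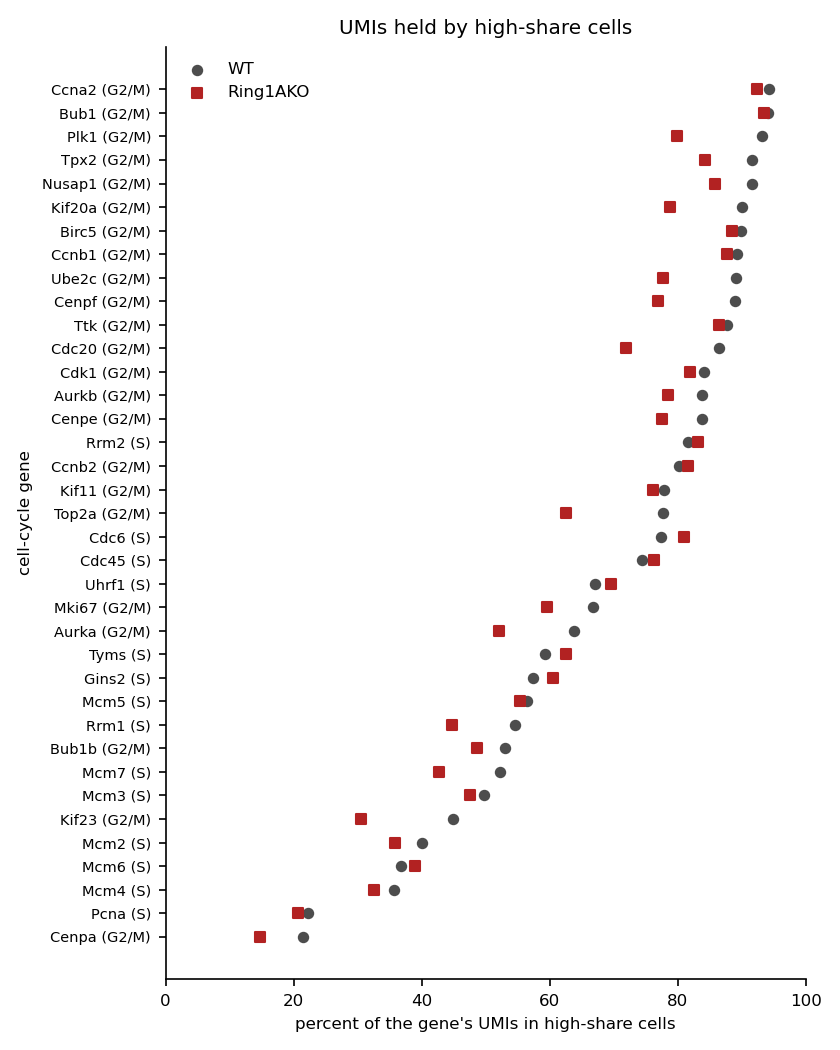
Percent of the UMIs of each member held by high-share cells, defined without that member, in the WT (grey circles) and Ring1AKO (red squares) libraries, with members ordered by the WT value. Values run from 21.4% for Cenpa to 94.2% for Ccna2 in WT, and Pcna is next to Cenpa at 22.3%.

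Further cell-cycle lists were counted in the same way, and their counts stand beside 19.0% of all genes lower and 3.97% higher over all kept cells. Of 44 other G2/M genes, 17 were at least 1.5-fold lower over all kept cells and 0 higher (median log2 ratio -0.44), with Kif4 at 6.38 and 2.26 CPM and Sgo2a at 3.20 and 1.16 CPM as the largest falls. H2afx (34.7 and 51.0 CPM) and Tubb4b (65.5 and 92.9 CPM) had the largest positive ratios and stayed under the fold. Of 26 other S genes, 2 were higher and 3 lower (median 0.04). Pold1, a DNA polymerase subunit, was at 8.44 and 13.1 CPM and Cdt1, a licensing factor, at 23.9 and 36.3 CPM, while Pola1 was at 9.83 and 4.69 CPM and Orc1 at 2.28 and 1.32 CPM. In Treg cells 17 of 19 other S genes and 16 of 23 other G2/M genes were higher by the fold, against 12.2% of all genes there. The UMI limit for these lists was also on the sum over both libraries, and the Treg cells were the same. The counts of 17 and 16 are thus not independent of that limit or of the counts of members. How far they rest on the few high-share Treg cells was not tested.

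Of the regulators, 5 of 13 E2F, DREAM and MuvB genes were lower and 0 higher, and for each of the 3 regulator lists the same 19.0% of all genes lower is the background. Rbl1, a DREAM pocket protein, was at 12.2 and 6.68 CPM and Rb1 at 42.2 and 25.1 CPM. Mybl2, which encodes B-MYB, was at 2.93 and 4.11 CPM and E2f4 at 24.5 and 31.1 CPM. Of 8 G1 cyclins and CDKs 1 was lower, Ccnd1 (cyclin D1) at 22.8 and 8.18 CPM. Ccne2 was at 4.30 and 3.24 CPM, Ccne1 at 4.78 and 5.87 CPM and Cdk2 at a log2 ratio of 0.27. Of 7 CDK inhibitors 2 were lower, Cdkn1a (p21) at 407 and 215 CPM and Cdkn1b (p27) at 137 and 76.4 CPM, and Cdkn2d at 25.4 and 30.8 CPM and Cdkn2c at 8.26 and 9.17 CPM had the largest positive ratios. The counts of 1 of 8 and 2 of 7 lie near the background share. The regulator lists were counted over all kept cells without equal class composition, and monocytes were 13.4% of WT and 3.04% of Ring1AKO cells. For the CDK inhibitors counted, the median log2 ratio was -0.24 in B cells (4 genes) and -0.15 in monocytes (3 genes). For all genes counted there it was -0.19 and -0.18. The part of cell makeup in the regulator values was not tested. High-share cells had less Cdkn1a than the other cells, 143 and 429 CPM in WT and 152 and 220 CPM in Ring1AKO. In both libraries Cdkn2a, which encodes p16 and p19 and is a known polycomb target, was higher in high-share cells, at 13.4 and 3.89 CPM in WT and 15.4 and 2.50 CPM in Ring1AKO. Class makeup was not held equal for Cdkn1a or Cdkn2a here. In WT, monocytes were 8 of 230 high-share cells and 806 of 6005 kept cells, and the part of class was not tested.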

How the data were processed

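The deposited matrices hold raw UMI counts per gene and barcode that the authors made with Cell Ranger from 10x Genomics 3' libraries, 1 library per group. The submitters' processing notes name Cell Ranger 6.0.2 and mm39, while the file headers and the study's methods name other releases and the methods mm10, so the release and build of the counts are open. Cells were kept at 1000 UMIs, 500 genes and under 5% mitochondrial UMIs. Lineages were set by how many marker genes of a list (at least 3 to 5) had a UMI. T cells were then split by single genes. Treg cells had a Foxp3 UMI without Cd8a or Cd8b1, and CD8 T cells a Cd8b1 UMI without Cd4 or Foxp3. CD4 T cells had a Cd4 UMI without Foxp3, Cd8a or Cd8b1. A single UMI could thus decide these T classes, and the part of depth in them was not tested. Cells with markers of several lineages were set apart as mixed (314 and 407 cells), and no doublet caller was run. Sums, shares and intervals came from Python 3.11.15 and SciPy 1.17.1. Gene ratios add 1 UMI to each sum. Gene positions and lengths came from GENCODE on GRCm38. Of the members, 8 overlap a gene on the opposite strand, and whether counting used strand is not given in the sources used here. In counts simulated for B cells, 95.8% of 9879 ratio intervals held the true ratio. Each gene was drawn there from an independent Poisson, the form the intervals assume, so this checks the calculation only. It does not cover cell-cycle UMIs that come together in few cells. The genes named in each class of at least 100 cells per library were the 3 with most UMIs and the 2 largest differences each way, with Mki67 and Top2a always. Members and lists were chosen with earlier results of these data known.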

Additional observations from a re-analysis of the deposited data

Results flagged for a closer look

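Barcodes with fewer than 100 UMIs, which enter no comparison of cells, carried the 37 genes at 688 CPM in the WT library and 653 CPM in the library labelled Ring1AKO, above the limit that a count of 0 allows. Pcna was at 140 and 147 CPM there, Cenpa at 97.6 and 104 CPM and Mki67 at 45.5 and 30.1 CPM, so the Mki67 difference seen in cells was also present in cell-free RNA.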

How the results depend on the processing

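All values are log2 ratios, Ring1AKO over WT, and the cause of each change was not tested unless the setting itself shows it. With 3 module UMIs in place of 5, the share of cells was -0.21 over all kept cells and -0.14 in B cells, and with 10 it was -0.75 in all cells, -1.94 in B, -0.58 in CD4 T, -0.32 in CD8 T, -0.87 in monocytes and -0.99 in dendritic cells. Thinning to 2000 UMIs gave -0.09 in all cells. Without the member with most UMIs this share was -0.62 in all cells, -1.05 in B and -0.82 in monocytes. The summed level without that member was -0.36 in all cells, -1.15 in B, -0.35 in plasma, -0.37 in CD4 T, -0.33 in monocytes and -1.14 in dendritic cells. With 1 more marker gene the level was -0.90 in B, 0.17 in monocytes, -0.42 in neutrophils and -1.26 in dendritic cells. Without cells of over 5000 genes it was -0.25 over all kept cells, -0.36 at equal class composition, -0.79 in B, 0.42 in Treg, 0.10 in monocytes and -0.57 in dendritic cells. The mean over cells gave -0.23 in all cells, -0.46 in B, -0.37 in plasma, 0.35 in Treg, -0.08 in CD8 T and 0.04 in monocytes. Settings chosen after seeing the data were these. Without high-share cells the level was -0.03 in all cells, -0.14 in B, -0.62 in plasma, -0.06 in CD4 T, 0.06 in Treg, -0.25 in NK, 0.16 in monocytes and -0.43 in dendritic cells, and in CD8 T cells it turned from -0.43 to 0.12. A looser T-cell exclusion gave -1.30 in NK. A high share from 0.1% gave -0.38 for the share of high-share cells in all cells and -0.79 in B. Counts of members changed by over 1.5 times as follows. After subtracting the median of genes of like length, 1 member was higher in all cells, and 4 were higher and 7 lower in plasma, and 0 were lower in Treg. Asking for 100 UMIs left 4 lower in CD4 T, 0 in Treg, 4 in CD8 T and 8 in dendritic cells. No share over all genes was computed for these settings. The other settings, which include 2000 or 500 UMIs, 10% mitochondrial UMIs, 40% ribosomal UMIs, subtraction of free RNA and a 60% limit for the phase, kept the values of the level, the share of cells and the phase within the main intervals. No paired analysis was possible because each group has 1 library. No replicate can be left out, and few high-share cells per class limit what can be seen: B, plasma, CD4 T, Treg and CD8 T classes held 12 to 39 in each library, and the NK, ILC2, monocyte, neutrophil and dendritic classes at most 12.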
